A study of Mus musculus with 2 samples.

Results

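The genes described here are the cytosolic ribosomal protein genes of the mouse and their paralogs, as measured in single cells of the taste papillae. They were chosen by symbol alone: every symbol made of Rpl or Rps and a digit, with Rplp0, Rplp1, Rplp2 and Rpsa added, and without processed pseudogenes marked "-ps" and the ribosomal S6 kinases. This gave 89 of the 21888 genes listed in the FP and CV tables. Of these, 77 encode core ribosomal proteins (43 of the large subunit, 3 of its stalk and 31 of the small subunit), 11 are paralogs, and Rps19bp1 encodes a binding partner of the protein Rps19 and is no ribosomal protein. Rpl39l was listed in the FP table only, with no count there. A pooled level of at least 10 CPM (counts scaled to a total of 1000000) in FP or CV taste cells or in keratinocyte-like barcodes was reached by 85 of the 89. The 4 that did not reach it were the paralogs Rpl3l, Rpl32l, Rpl10l and Rpl39l.

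The cells came from adult α-gustducin-GFP mice on a C57BL/6J background, in which green fluorescent protein marks cells that express α-gustducin (Gnat3), the G protein α-subunit of sweet, bitter and umami transduction. Live fluorescent cells were sorted from the epithelium of the fungiform papillae (FP, front of the tongue) and of the circumvallate papilla (CV, back of the tongue) and sequenced as 1 library each, with 29 FP and 61 CV cell barcodes and none shared between them. Neither group was treated, and the number of mice behind each library is not stated in the sources used here. Barcodes with more than 500 genes and a Gnat3 level above 0.9 on the natural log scale of counts per 10000 were taken as taste cells, which left 21 in FP and 32 in CV. Of the 32 CV cells, 5 have adjoining or close barcode numbers, and whether they are separate cells is not known. The deepest of them held 1350869 counts and the others 54413 to 121188. All 5 are included in the CV values below unless stated. In the FP library, 7 barcodes with at least 1000 CPM of Krt13 plus Krt6a, keratins of the lingual surface epithelium, formed a keratinocyte-like group. With 1 library per group no test between groups is possible: cells of a library are not replicates. The 95% intervals over counts given below cover counting error only, and those over numbers of cells take the cells as independent draws. Intervals over counts take each count as an independent molecule. They are too narrow if the counts hold PCR copies, which is not known.

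Ribosomal proteins join ribosomal RNA to form the small subunit, which decodes the messenger RNA, and the large subunit, which forms the peptide bonds. The genes are expressed in essentially every cell, and most of their transcripts begin with a run of pyrimidines, the 5′ terminal oligopyrimidine tract, through which growth signals set their translation. Several genes have paralogs, either old duplicates with introns or retrocopies made from messenger RNA, whose proteins can replace the parent protein in some tissues.

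Pyrimidine-rich letters near the start can be seen in the reference sequence of some members whose levels are described below. The 4 genes were picked as holding CTTTC there. Each line gives 30 bases of the transcript strand that include the transcription start in RefSeq's GRCm38.p6 annotation, with the letters CTTTC in capitals. CTTTC begins 10 bases after that start in Rpl12, 2 in Rpl35, 7 in Rps26 and 0 in Rplp2. The capitals therefore need not mark the terminal tract.

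Rpl12 (chr2:32961709-32961738, plus strand): tccgtcttttcggCTTTCggctcggaggag

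Rpl35 (chr2:39005113-39005142, minus strand): cccgccctttcctCTTTCtctcgaaccagg

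Rps26 (chr10:128626483-128626512, minus strand): gccgccggatcctCTTTCgagtcttggctc

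Rplp2 (chr7:141447638-141447667, plus strand): cgtcagcgtcttcCTTTCgccgccggacgc

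The RefSeq promoter table held 57 of the 77 core members. CTTTC on the transcript strand, from 20 bases before to 20 bases after the start, was found in 18 of these 57 (31.6%) and in 966 of 15410 listed genes (6.27%). On the other strand, where it reads GAAAG, it was found in 7.02% of the core members and 5.35% of the listed genes over the same 40 bases. CCGGAAG, the core of the recognition sequence of ETS factors, was found on either strand of the 300-base promoter window in 42.1% of the core members and 14.6% of the listed genes. These are matches of letters and not measured sites.

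Marker genes of several cell types were summed in each group. The type II list holds Gnat3 and the keratinocyte list holds Krt13 and Krt6a, by which the groups were chosen. Their sums are therefore in part fixed by that choice. The 7 type II taste cell markers summed to 21013 CPM in FP taste cells, 17974 CPM in CV taste cells and 93.8 CPM in the keratinocyte-like barcodes. The 13 lingual keratinocyte markers summed to 162, 4.88 and 80628 CPM in the same order. Fibroblast markers summed to 474 CPM in the keratinocyte-like barcodes, through 1 of 3 markers, and to under 10 CPM in the other groups. Type III taste cell (27.5 CPM), type I taste cell (18.8 CPM), endothelial (36.3 CPM), immune (7.11 CPM) and erythrocyte (6.94 CPM) markers had their highest sums in CV taste cells. The pooled totals were 22646953 counts in FP taste cells, 29535917 in CV taste cells and 11918186 in the keratinocyte-like barcodes. Totals per cell ran from 193718 to 3190340 in FP and from 32726 to 3447628 in CV.

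Ribosomal protein genes together made up 5.61% of all counts in FP taste cells, 4.88% in CV taste cells and 15.8% in the keratinocyte-like barcodes. Per cell, the share ran from 0.927% to 6.74% in FP with a median of 5.64%, and from 0.370% to 8.29% in CV with a median of 4.72%. In the keratinocyte-like barcodes it ran from 7.34% to 21.3% with a median of 19.4%. All 7 keratinocyte-like barcodes were therefore above all 21 FP taste cells, while the FP and CV ranges overlapped. Most taste cells kept to a narrow band, with 18 of 21 FP cells and 20 of 32 CV cells between 4% and 7%. Many cells of low share had a high mitochondrial share: across cells, Spearman's rho between the ribosomal protein and mitochondrial shares was -0.56 over 21 FP cells and -0.57 over 32 CV cells, which share a denominator within each cell. With mitochondrial genes and ribosomal RNA left out of the denominator these values were -0.19 and -0.13. The pooled shares were then 6.54% in FP, 5.72% in CV and 17.3% in the keratinocyte-like barcodes, and the lowest keratinocyte-like barcode (7.79%) was below the highest FP taste cell (8.61%).

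**Figure D1:**
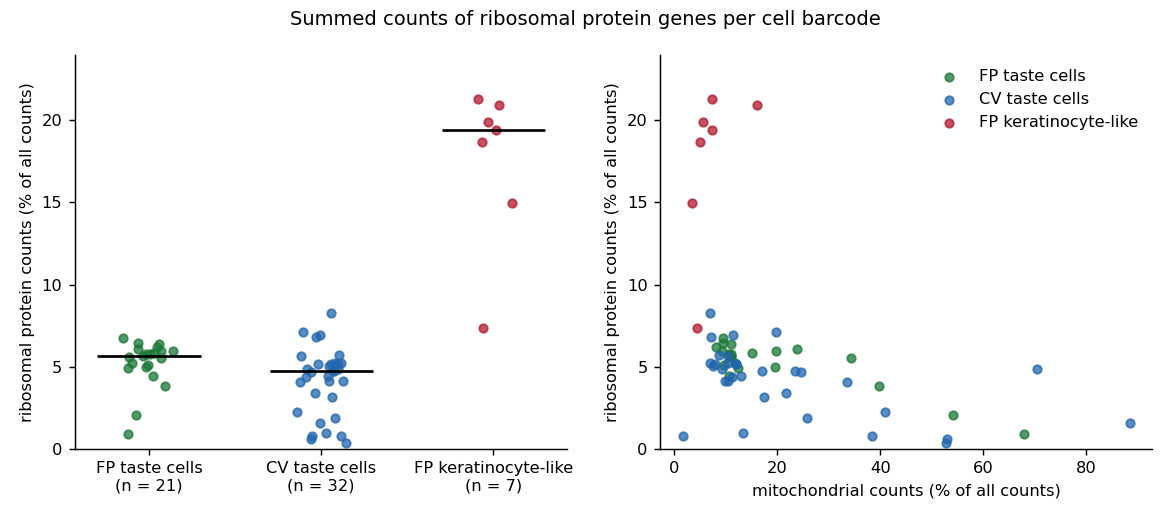
Left, the share of all counts that came from ribosomal protein genes in each cell barcode of the 3 groups, with the median as a line. Right, the same share against the share of mitochondrial counts. The keratinocyte-like barcodes lie between 7.34% and 21.3%, all above the FP taste cells, and several taste cells of low share lie to the right.

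The pooled FP share was 1.15 times the CV share (1.147 to 1.153 by counting error). The ratio of keratinocyte-like barcodes to FP taste cells was 2.82 (2.815 to 2.828). The median mitochondrial share was 11.1% in FP, 12.5% in CV and 5.64% in the keratinocyte-like barcodes. With mitochondrial genes and ribosomal RNA left out of the denominator the ratios were 1.14 and 2.64. That step takes out only their counts, and any other relation of the mitochondrial share to these ratios was not tested. Among cells with at least 1000000 counts the share ran from 4.44% to 6.74% in 13 FP cells, from 3.18% to 7.13% in 14 CV cells and from 7.34% to 20.9% in 4 keratinocyte-like barcodes.

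Deeper cells held counts of more members. A taste cell held counts of 63 to 87 of the 89 members in FP (median 84) and of 10 to 87 in CV (median 80). The keratinocyte-like barcodes held 81 to 87 (median 85). Spearman's rho between the number of members seen and the total of the cell was 0.76 over 21 FP cells and 0.93 over 32 CV cells. After each cell was thinned to 71770 counts, which left out 6 CV cells, the medians were 81, 79.5 and 83. The thinned numbers still ran from 43 to 85 in FP and from 19 to 86 in CV, against 80 to 84 in the keratinocyte-like barcodes. Cells therefore also differed at an equal number of counts, which need not be an equal number of molecules. Cells of at least 1000000 counts held 84 to 87 members in all 3 groups.

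**Figure D2:**
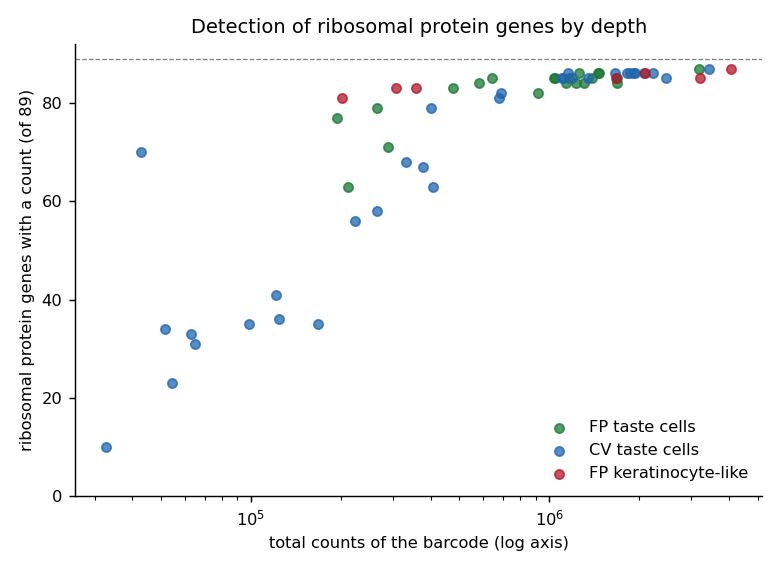
Number of the 89 ribosomal protein genes with at least 1 count in each barcode against the total counts of the barcode on a log axis. Barcodes above 1000000 counts lie between 84 and 87 genes in all 3 groups, while the CV cells of lowest depth fall as low as 10.

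The most abundant member in taste cells was Rpl41, which encodes the shortest ribosomal protein. Its pooled level was 2151 CPM in FP taste cells against 2260 CPM in CV, or 3.83% and 4.63% of all ribosomal protein counts. It was also the steadiest core member in FP, with a standard deviation of 0.39 on the log2 scale over the FP cells of at least 1000000 counts. The next large subunit genes by FP level were Rpl8 (1723 CPM), Rpl3 (1183 CPM), Rpl9 (1052 CPM) and Rpl6 (1040 CPM). In the small subunit they were Rps24 (1987 CPM), Rps14 (1495 CPM), Rps3a1 (1235 CPM), Rps9 (1152 CPM) and Rps4x (851 CPM). The core members spanned 227 to 2151 CPM in FP and 260 to 2260 CPM in CV, so that the highest exceeded the lowest by less than 10-fold although most of their proteins occur in equal number in a ribosome. Per kilobase of coding sequence, Rpl41, Rps24, Rps29, Rplp1 and Rps14 or Rpl39 were the highest in taste cells, and Rps6, the S6 kinase substrate, was among the 3 lowest in all 3 groups. This division by itself raises short genes such as Rpl41, with 75 coding bases in a transcript of 582. Whether counts rise with coding length on this platform was not tested. Across the 77 core members, pooled log2 CPM in FP and CV had a Pearson correlation of 0.76 and a Spearman correlation of 0.69, a description over genes that share libraries.

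FP and CV taste cells differed little in these genes. On the log2(CPM + 10) scale, 3 of the 85 members past 10 CPM had at least 2-fold more in FP, and 0 had at least 2-fold more in CV. Over all 10918 genes of that level, 17% were past 2-fold in favour of FP and 21% in favour of CV, and over the 1056 genes of at least 200 CPM, 11.9% and 13.1%. Over the 85 members the log2 ratio had a median of 0.19, against -0.05 over all genes. FP was above CV in 61 members and below in 24. The number of members past 2-fold in favour of FP was 9 when CPM was averaged over cells and 45 by the median over cells. All genes shifted with these settings: by the median over cells the median log2 ratio was 1.06 over the members and 1.20 over all genes, and by the mean 0.32 and 0.21.

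The 3 members past 2-fold were the large subunit genes Rpl4 and Rpl3 and the stalk base gene Rplp0. Rpl4 encodes a protein that lines the exit tunnel. It was measured at 958 CPM in FP against 350 CPM in CV, a log2 ratio of 1.43, and it ran from 56.6 to 1906 CPM over FP cells with a median of 771, and from 0 to 960 CPM over CV cells with a median of 81.5. Rpl3, whose protein reaches towards the peptidyl transferase centre, stood at 1183 CPM in FP against 505 CPM in CV, a log2 ratio of 1.21. Its cells ran from 0 to 2475 CPM in FP (median 874) and from 0 to 2245 CPM in CV (median 262). Rplp0, which anchors the stalk proteins that recruit translation factors, stood at 781 CPM in FP against 323 CPM in CV, a log2 ratio of 1.25. It ran from 6.28 to 2416 CPM over FP cells (median 564) and from 0 to 892 CPM over CV cells (median 41.7). For all 3 genes the FP and CV cells overlapped, although the highest FP cell of each gene stood above all CV cells. The Rplp0 log2 ratio was 0.94, below the 2-fold limit, among cells of at least 1000000 counts.

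The 2 other stalk genes had the opposite sign. Rplp1, the acidic protein P1, stood at 984 CPM in FP against 1495 CPM in CV, a log2 ratio of -0.60. Rplp2, the acidic protein P2, had 581 and 764 CPM, a log2 ratio of -0.39. The sign for Rplp1 did not hold over cells: its median per cell was 788 CPM in FP against 397 CPM in CV. The lowest log2 ratios of FP over CV were those of Rpl35 (-0.77, 301 and 519 CPM), which lies near the tunnel exit, and Rps28 (-0.70, 227 and 374 CPM), a small subunit protein at the messenger RNA exit. Rpl15 (-0.51), Rpl39 (-0.43), Rpl22l1 (-0.40) and Rpl22 (-0.34) followed. After the 3 genes past 2-fold, high log2 ratios were also those of Rpsa (0.88), Rpl14 (0.85), Rps4x (0.83) and Rpl9 (0.83). Rpsa, a small subunit protein also known as the laminin receptor, stood at 791 CPM in FP against 426 CPM in CV.

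Across the core members, the FP to CV ratio was ordered by coding length. The 25 shortest, of 75 to 399 coding bases, had a median log2 ratio of -0.08, with 11 above and 14 below 0. The 25 longest, of 582 to 1257 coding bases, had a median of 0.38, with 23 above and 2 below 0. Spearman's rho between the log2 ratio and coding length was 0.56 over the 77 core genes, 0.52 over the 43 large subunit genes and 0.53 over the 31 small subunit genes. Without Rpl3, Rpl4 and Rplp0 it was 0.51, and among cells of at least 1000000 counts it was 0.54. Over 557 other genes of at least 200 CPM, no longer than the longest core member, rho was 0.04. All these points come from the same pair of libraries, and no cause of the order by length was tested.

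**Figure D3:**
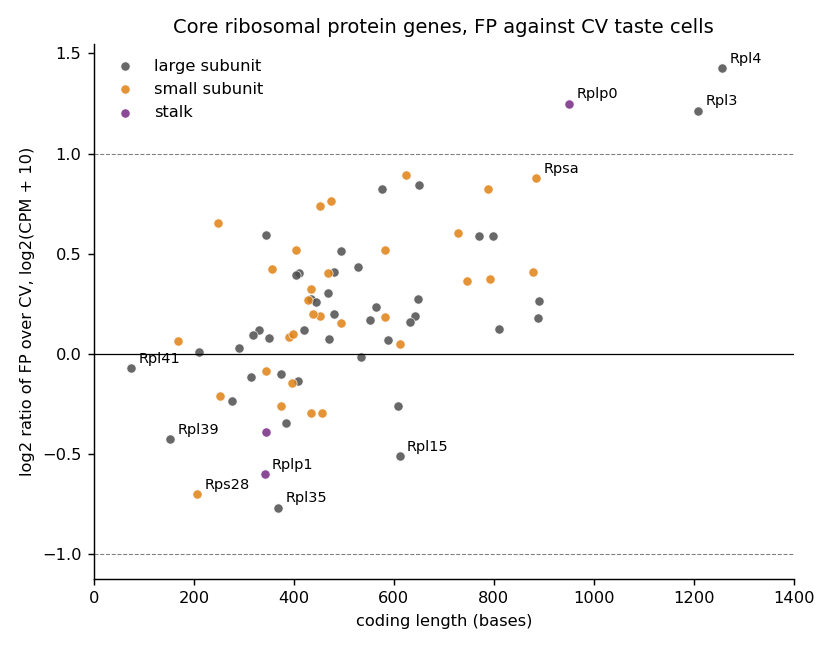
Log2 ratio of FP over CV taste cells, on the log2(CPM + 10) scale, of the 77 core genes against coding length in bases, coloured by subunit. The dashed lines mark 2-fold; Rpl4, Rplp0 and Rpl3 lie above the upper line, no gene lies below the lower line, and of the 25 longest genes 23 lie above 0.

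The keratinocyte-like barcodes held a higher CPM of nearly every ribosomal protein gene than the FP taste cells of the same library. Of the 85 members past 10 CPM, 72 were at least 2-fold higher and 2 at least 2-fold lower. Over all 9977 genes of that level, 18% were at least 2-fold higher in the keratinocyte-like barcodes and 48.4% at least 2-fold lower, and over the 1159 genes of at least 200 CPM, 34.6% and 34.3%. The median log2 ratio was 1.43 over the members and -0.93 over all genes. All 77 core members were above 0 and 68 of them past 2-fold: 37 of 43 in the large subunit, 3 of 3 in the stalk and 28 of 31 in the small subunit. The summed keratinocyte markers (162 and 80628 CPM) and type II markers (21013 and 93.8 CPM) differed between the same groups, and their part in the result was not tested.

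The sizes of the differences were uneven. The highest was Rps12, a small subunit protein, with 647 CPM in FP taste cells and 4456 CPM in the keratinocyte-like barcodes, a log2 ratio of 2.77. Its values ran from 56.8 to 1756 CPM in taste cells (median 527) and from 1251 to 13596 CPM in keratinocyte-like barcodes (median 5423). Rplp0 came next with 781 and 5029 CPM, a log2 ratio of 2.67, and was the most abundant ribosomal protein gene of the keratinocyte-like barcodes. Its lowest keratinocyte-like barcode (4033 CPM, median 5498, highest 8476) stood above its highest taste cell (2416 CPM). The next were Rpl35 (2.59), Rpl39 (2.51), Rpl12 (2.50), the paralog Rpl22l1 (2.42), Rps28 (2.36) and Rps26 (2.22). Rpl39, which forms part of the exit tunnel, ran from 1203 to 7312 CPM in keratinocyte-like barcodes and from 11.7 to 942 CPM in taste cells.

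In 6 of the 85 members all keratinocyte-like barcodes were above all FP taste cells (Rpl37rt, Rpl39, Rplp0, Rps18, Rps26 and Rps28), and 0 members were entirely below. The first was true of 0.341% and the second of 0.13% of the 9977 genes of that level. Of these genes, 1159 reached 200 CPM, and the shares were not taken over those alone. The level of Rpl37rt is uncertain, as described below. At the other end, Rpl3 had 1183 CPM in taste cells and 1431 CPM in keratinocyte-like barcodes, a log2 ratio of 0.27, which turned to -0.14 without the cell of highest ribosomal protein sum in each group. Rps24 (0.54), Rps9 (0.71), Rpl9 (0.76) and Rpl4 (0.76) followed among the core genes. Rpl3, Rpl9, Rps24 and Rps9 were among the most abundant members in taste cells. The order of the core members was therefore only in part shared between the groups, with a Pearson correlation of 0.70 and a Spearman correlation of 0.64 between their log2 CPM.

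**Figure D4:**
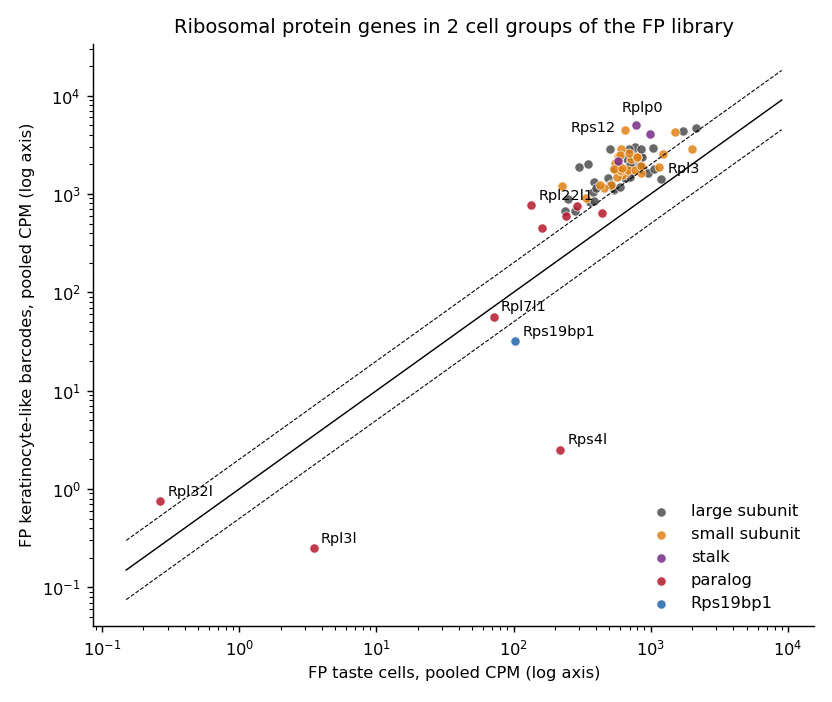
Pooled CPM of each ribosomal protein gene in the 7 keratinocyte-like barcodes against the 21 FP taste cells, on log axes, coloured by role; Rpl10l and Rpl39l, at 0 in the keratinocyte-like barcodes, are not drawn. The solid line marks equal levels and the dashed lines 2-fold; nearly all core genes lie near or above the upper dashed line, and Rps4l, Rps19bp1 and the barely detected Rpl3l lie below the lower one.

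The 2 members at least 2-fold lower in the keratinocyte-like barcodes were the paralog Rps4l and Rps19bp1, which is no ribosomal protein. Rps19bp1 had 102 CPM in FP taste cells, 55 CPM in CV taste cells and 31.8 CPM in keratinocyte-like barcodes. It was seen in 8 of 21, 11 of 32 and 2 of 7 cells, so that its median was 0 in each group, and by the medians it did not differ.

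Rps4l is a retrocopy of Rps4x, the X-linked gene of the small subunit protein S4. In GRCm38 it occupies chr6:148354656-148355598 on the plus strand as 1 exon, and the GENCODE annotation lists it as a transcribed processed pseudogene. Rps4x, with 7 exons, lies at chrX:102184941-102189394 on the minus strand. Over 829 aligned transcript bases the pair was 81.4% identical, and the longest identical run was 38 bases. The copy keeps a start codon and an open frame of 262 codons, against 263 in Rps4x, with 146 differing bases over the 789 coding bases of the parent. The stretch below was picked as the 120 coding bases without a gap that hold the most differences, so it overstates the distance over the whole frame. Its 32 differing bases are in capitals. Whether single reads of the pair can be told apart depends on where they lie and was not tested. The Rps4l stretch is chr6:148354743-148354862, and the Rps4x stretch is coding bases 34 to 153 of its transcript.

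Rps4x: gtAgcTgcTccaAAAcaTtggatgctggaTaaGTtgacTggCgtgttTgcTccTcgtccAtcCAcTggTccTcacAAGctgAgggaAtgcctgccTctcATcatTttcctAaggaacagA

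Rps4l: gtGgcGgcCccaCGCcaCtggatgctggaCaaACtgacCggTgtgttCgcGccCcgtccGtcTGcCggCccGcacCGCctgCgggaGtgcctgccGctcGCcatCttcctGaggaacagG

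Rps4l stood at 218 CPM in FP taste cells, 166 CPM in CV taste cells and 2.52 CPM in the keratinocyte-like barcodes. Over FP taste cells it ran from 0 to 1311 CPM with a median of 1.56, over CV taste cells from 0 to 1259 CPM with a median of 15.9, and over keratinocyte-like barcodes from 0 to 10.5 CPM with a median of 0.625. The pooled level in the keratinocyte-like barcodes rested on 30 counts, and the ratio to FP taste cells was 0.0116 (0.00779 to 0.0165 by counting error). The log2(CPM + 10) ratio was -4.19, and -0.12 by the medians over cells, since both medians were near 0. Rps4x went the other way, with 851 CPM in FP taste cells and 1912 CPM in the keratinocyte-like barcodes. The groups overlapped at the low end, since many taste cells had no or few Rps4l counts.

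Within taste cells Rps4l was present in some cells and at or near 0 in others. A level of at least 50 CPM was found in 7 of 21 FP cells (33.3%, exact Clopper-Pearson interval 14.6% to 57%) and in 14 of 32 CV cells (43.8%, 26.4% to 62.3%). None of the 7 keratinocyte-like barcodes reached it, with an upper limit of 41% by the same interval. These intervals take the cells as independent draws, and cells of a library are not replicates. Whether these shares differ between the groups was therefore not tested. Among cells of at least 1000000 counts, 5 of 13 FP cells, 10 of 14 CV cells and 0 of 4 keratinocyte-like barcodes reached 50 CPM. Over all depths, the CV cells past 50 CPM were deeper (median 1253223 counts) than the others (median 216200.5 counts), and in FP the medians were 1458420 and 1088306.5 counts. In FP the 7 cells lay between 74.3 and 1311 CPM and the highest of the other 14 at 46.1 CPM. After thinning to 71770 counts, at least 3 Rps4l counts were found in 8 of 21, 14 of 26 and 0 of 7 cells.

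The share of Rps4l in the counts of the pair was 20.4% in FP (19.9% to 20.9%), 25.9% in CV (25.3% to 26.5%) and 0.131% (0.0887% to 0.188%) in the keratinocyte-like barcodes. Among cells with at least 100 counts of the pair it ran from 0% to 50.6% over 19 FP cells, from 0% to 99.6% over 21 CV cells and from 0% to 0.496% over 6 keratinocyte-like barcodes. In these cells Rps4l exceeded Rps4x in 1 of 19 in FP, 3 of 21 in CV and 0 of 6 in the keratinocyte-like group. With no minimum of counts, Rps4l was past 50 CPM in 4 CV cells while Rps4x was under 50 CPM. The deepest of these held 743 counts of Rps4l and 22 of Rps4x in a total of 1115456 counts, and another held 282 and 1 in 224021. The FP share was 14.3% without the FP cell of highest Rps4l count and the CV share 22.9% without the corresponding CV cell. The direction of Rps4l between FP and CV did not hold: its log2 ratio was 0.37 in the pooled cells and -1.16 by the medians per cell.

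**Figure D5:**
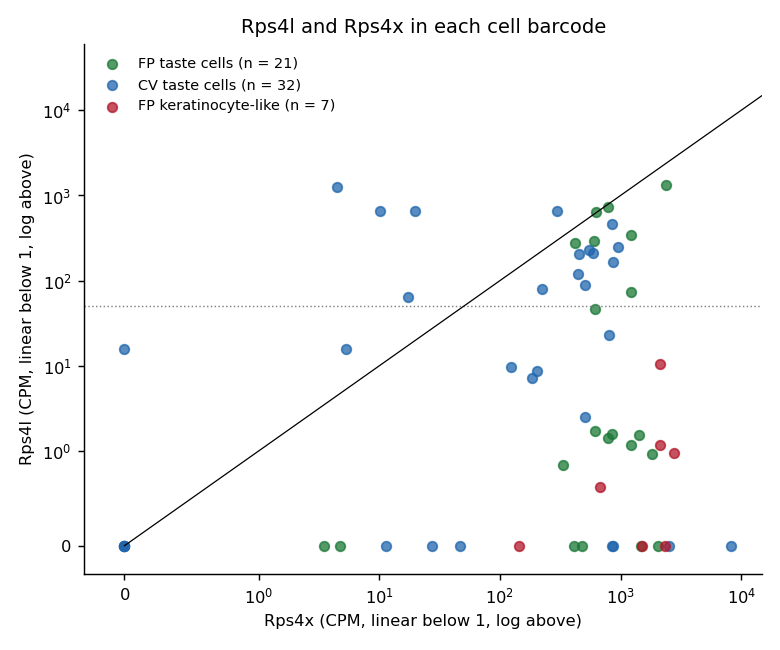
Rps4l against Rps4x in each barcode, in CPM, on axes that are linear below 1 and logarithmic above. The dotted line marks 50 CPM and the solid line equal levels; 7 FP and 14 CV taste cells lie above the dotted line, and the keratinocyte-like barcodes reach at most 10.5 CPM of Rps4l.

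No other paralog past 10 CPM was at least 2-fold lower in the keratinocyte-like barcodes. Rpl22l1, a paralog of the large subunit gene Rpl22, had 134 CPM in FP, 180 CPM in CV and 763 CPM in the keratinocyte-like barcodes. Its share of the pair was 35%, 36% and 46.1%, and it was seen in 17 of 21, 15 of 32 and 7 of 7 cells. Its median over CV cells was 0, so the CV level rested on those 15 cells. Rps27l, a paralog of Rps27 and a known p53 target, had 443, 515 and 641 CPM, and its share of the pair with Rps27 was 49.1%, 49.1% and 35.7%. Rpl36al, an intronless copy of Rpl36a, had 290, 236 and 761 CPM, with 44.8%, 41.4% and 47.9% of its pair. Rpl7l1 had 71.4, 60.7 and 56.3 CPM, and its share of the pair with Rpl7 was 11.7%, 10.9% and 2.98%. The pooled shares of Rps27l and Rpl7l1 were thus lower in the keratinocyte-like barcodes. Over cells with at least 100 counts of the pair, the median share of Rps27l was 51.7% in FP and 28.5% in keratinocyte-like barcodes. That of Rpl7l1 was 1.81% and 1.42%, so its pooled difference was hardly seen in the medians. Rpl7l1 reached 50 CPM in 5 of 21 FP cells. The log2 ratio of the Rpl7l1 level (-0.30) kept its sign under 12 of 14 alternatives.

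These shares varied widely between cells. Among cells with at least 100 counts of the pair, the share of Rpl22l1 ran from 0.0695% to 85.7% in FP, that of Rps27l from 1.21% to 95.4% and that of Rpl36al from 0% to 96.9%. The CV ranges were at least as wide. The retrocopies Rps27rt and Rpl37rt were different. Rps27rt held 34.6%, 34.7% and 34.2% of its pair with Rps27, and over cells from 29.97% to 41.4% in FP, from 30.3% to 43.3% in CV and from 33% to 37.7% in the keratinocyte-like barcodes. Rpl37rt held 28.8%, 29.3% and 27.9% of its pair with Rpl37, from 16.4% to 40.3% over FP cells. Rps27rt matches Rps27 over 341 bases without a difference, and Rpl37rt matches Rpl37 at 99.7% of 344 bases, with a longest identical run of 256. Reads of these pairs cannot be assigned with certainty, so the levels of Rps27rt, Rpl37rt and their parents are uncertain, and the same holds for Rpl32l (97.5% identical to Rpl32).

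The lines below give the bases around the start of Rps27 and of its retrocopy. Most of the bases before CTTTC differ, and those from CTTTC on are the same. Whether reads of the pair come from this stretch was not tested. CTTTC is in capitals in both lines.

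Rps27 (chr3:90213631-90213660, minus strand): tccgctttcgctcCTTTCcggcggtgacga

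Rps27rt (chr9:114982723-114982752, minus strand): aacttatcccttgCTTTCcggcggtgacga

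The remaining paralogs were near the limit of detection. Rpl3l, the striated muscle form of Rpl3, had 3.49 CPM in FP, 5.76 CPM in CV and 0.252 CPM in the keratinocyte-like barcodes. Rpl32l stayed below 1 CPM in all 3 groups. Rpl10l, a testis-expressed copy of Rpl10, had 1 count in FP and 0 in the other groups. The testis-enriched paralog Rpl39l had 0 counts in the FP table.

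Ribosomal proteins with other symbols, and genes of translation, gave the surroundings of the set. Rack1, which encodes a scaffold protein of the small subunit, and Fau, which encodes a ubiquitin-like fusion of the ribosomal protein eS30, had log2 ratios of 0.08 and 0.00 in FP over CV. In keratinocyte-like barcodes over FP taste cells they had 1.81 and 0.59. Of the listed translation factors, 2 of 23 were at least 2-fold higher in FP than in CV (Eif4b at 1.26 and Eif3f at 1.09) and 1 lower (Eif4e, the cap-binding protein, at -1.25). Over all genes 17% were higher and 21% lower. In the keratinocyte-like barcodes 4 of 22 were higher and 3 lower, against 18% and 48.4% over all genes, with a median log2 ratio of 0.61. Eif4a2, an RNA helicase, was lower (868 and 166 CPM, a log2 ratio of -2.31), as was its cofactor Eif4b (-2.18), while Eef1d was higher (1.84).

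Of the ribosome biogenesis genes, 4 of 23 were at least 2-fold higher and 4 lower in FP than in CV. The shares over all genes, 17% higher and 21% lower, were near those of this list. Among the higher ones were Pes1 (2.29), Rrs1 (1.21) and the nucleolar protein gene Ncl (1.07). The 4 lower ones, named after their values were seen, were all under 50 CPM: Wdr12 (0.795 and 41.2 CPM), Mdn1 (0 and 28.4 CPM), Bop1 (7.68 and 31.6 CPM) and Bysl (11.4 and 36.5 CPM). In the keratinocyte-like barcodes 9 of 25 were higher and 4 lower, against 18% and 48.4% over all genes. Gnl3, the gene of nucleostemin, had 143 CPM there and 5.25 CPM in FP taste cells, a log2 ratio of 3.33, and the nucleolar RNA methyltransferase gene Nop2 had a log2 ratio of 2.83. Tsr1, which acts in small subunit maturation, had 0.336 CPM there and 121 CPM in FP taste cells, a log2 ratio of -3.67, and Pes1 one of -3.03. The mitochondrial ribosomal protein genes, which build a separate ribosome, had 20 of 78 at least 2-fold higher in the keratinocyte-like barcodes and 19 lower, with a median log2 ratio of -0.02. Over all genes these shares were 18% and 48.4% and the median was -0.93. Mrpl13 (4.12) and Mrps31 (-3.98) lay at the ends.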

How the data were processed

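The authors deposited a table of counts per gene and cell barcode for each of the 2 libraries. Per the labels and the series' design text, cells were captured on the BD Rhapsody system, cDNA was amplified by TAS-Seq, reads were aligned with Bowtie2 2.3.4.1 after cutadapt 2.10 to mouse reference RNA (mm10, per the submitters' processing notes), and distribution-based error correction was applied; whether PCR copies were collapsed is not given in the sources used here. Counts were pooled over the cells of a group and scaled to CPM. Ratios are differences of log2(CPM + 10), called at 2-fold among genes of at least 10 CPM in either group. Intervals are 95% Poisson, conditional binomial or Clopper-Pearson intervals. Those over counts cover counting error only, and those over numbers of cells take the cells as independent draws. Those over counts are too narrow if PCR copies were not collapsed. The calls were also run on simulated Poisson counts with no spread between cells and no PCR copies, which bears on their arithmetic only. The taste cell limits follow the study's limits on genes and Gnat3, read as a natural log; its stated mitochondrial and ribosomal RNA limits were not applied. Doublets were not called in 90 barcodes; the sort used singlet gates. The named members were all paralogs and parents, the stalk genes and Rpsa, members missing from a table, the 5 highest of each subunit, the 8 highest and 8 lowest log2 ratios of each comparison at 50 CPM or more, members seen in few cells, and up to 4 genes of each other list; some genes that this rule names are not reported here. Members, lists and rules were chosen with earlier results of these data known. Alternatives changed the pooling, denominator, cells, depth, limits, pseudocount, filter and scaling. Sequences are from GENCODE and RefSeq for GRCm38, the build of the labels. Software was Python 3.11.15, numpy 2.4.6, pandas 2.3.3, scipy 1.17.1, Biopython 1.88 and matplotlib 3.10.9.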

Additional observations from a re-analysis of the deposited data

Results flagged for a closer look

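Rps4l was also present in CV barcodes outside the taste cell group, which enter no comparison above. A barcode of 4088415 counts below the Gnat3 limit held 1067 Rps4l counts (261 CPM) with Rps4x at 837 CPM. A shallow barcode of 49717 counts below the same limit held 302 Rps4l counts (6074 CPM) and no Rps4x count. Both lie above the highest level in the keratinocyte-like barcodes (10.5 CPM).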

How the results depend on the processing

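All values are pooled from 1 library per group. No paired analysis was possible because each group has 1 library. The ratio of the summed share, FP over CV, was 1.26 by the mean and 1.20 by the median of CPM per cell, 1.14 without mitochondrial and ribosomal RNA in the denominator, 1.20 without the cell of highest sum in each group, 1.14 without cells of at least 50% mitochondrial or ribosomal RNA counts, 1.27 after thinning, 1.147 for more than 1000 genes, 1.18 with no Gnat3 limit and 1.10 among cells of at least 1000000 counts, an alternative added after seeing the data. Members at least 2-fold higher in FP numbered 9 by the mean, 45 by the median, 6 without the cell of highest sum and 7 after thinning, and 1 was higher in CV by the median and 1 after thinning. The median log2 ratio over all genes was 0.21, 1.20, -0.03 and 0.07 under these 4 settings, against 0.32, 1.06, 0.21 and 0.34 over the members. The ratio of keratinocyte-like barcodes to FP taste cells was 3.36 by the mean, 3.44 by the median, 2.64 with the smaller denominator, 2.51 without the cell of highest sum, 2.78 without cells of at least 50% mitochondrial or ribosomal RNA counts, 3.34 after thinning and, as added alternatives, 2.70 among cells of at least 1000000 counts and 3.38 without the keratinocyte-like barcode of lowest share. By the median, 0 members were 2-fold lower there, since Rps4l and Rps19bp1 had medians near 0 in both groups. The Rps4l share of its pair was 12.8% in FP and 29.7% in CV as a mean over cells, 14.3%, 22.9% and 0.0435% (keratinocyte-like) without the cell of highest Rps4l count, 22.4% and 23.8% among cells of at least 1000000 counts, and 24.8% in CV without 5 taste cells of adjoining barcode numbers, the last 2 settings also added. Rpl3 and Rpl4 were at least 2-fold higher in FP under all 14 alternatives and Rplp0 under 12 of 14. Rps4l, Rps27l, Rps19bp1, Rplp1, Rpl22 and Rpl22l1 changed sign between FP and CV under 1 to 3 of them, and between keratinocyte-like barcodes and FP, Rpl3 under 1 and Rpl7l1 under 2. Scaling by the median ratio shifts log2 ratios by 0.04 (FP over CV) and -0.22 (keratinocyte-like over FP).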
